A study of Mus musculus with 12 samples.

Results

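The Myc and Mxd network is a set of transcription factors of the basic helix-loop-helix leucine zipper class that compete for a common partner, Max. The 9 members described here, Myc, Mycn, Max, Mxd1, Mxd3, Mxd4, Mxi1, Mnt and Mlx, were taken by gene symbol from a table of 29486 genes. All 9 symbols were found once each, and 8 of the 9 reached a scaled value of at least 10 reads in at least 1 condition. Mycn did not, and is described by its values alone.

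Messenger RNA was sequenced from primary splenic B cells of adult C57BL/6Babr mice in 12 libraries, 4 for each of 3 conditions. Every culture received lipopolysaccharide (LPS), a bacterial mitogen that drives B cells into growth and division. The conditions were LPS alone (10 µg/ml for 48 h), LPS followed by etoposide (20 µM for 4 h), and LPS for 47 h followed by KU55933 (10 µM) for 1 h and then etoposide (20 µM for 4 h). Etoposide traps topoisomerase II on DNA and so causes double-strand breaks, and KU55933 inhibits ATM, the kinase that signals such breaks. No condition with KU55933 but without etoposide was analysed here, so an action of KU55933 on undamaged cells cannot be told apart from one on the response to damage. The labels do not say whether the cells with LPS alone were kept for the additional 4 h, do not say how many animals were used, and give each condition Illumina indexes of its own, so index and treatment cannot be told apart.

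Myc binds DNA as a heterodimer with Max at the E-box hexamer CACGTG and recruits histone acetyltransferases, and its targets serve ribosome production, nucleotide synthesis and cell growth. The Mxd proteins, Mxi1 (also called Mxd2) and Mnt pair with the same Max, bind the same hexamer and recruit the Sin3 and histone deacetylase corepressor. Mlx pairs with the glucose-sensing Mondo factors and with some Mxd proteins in place of Max. In B cells Myc is induced by mitogens and is needed for entry into the cell cycle, and Mxd1 is best known from cells that leave the cycle and differentiate.

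The E-box is shown here because it is the letter sequence for which the proteins of the network compete, and because it lies at the start of several of their own genes. A search of RefSeq promoter windows on GRCm38.p6, each from 250 bases before to 50 bases after an annotated start, found CACGTG in 4 of the 8 members that have a window, Mxd4, Mnt, Mlx and Max. Myc has no entry in the table. The hexamer is its own reverse complement, so a match on either strand is the same match. In the lines below the hexamer is in capitals, with 10 bases on each side, 5′ to 3′ on the strand of the gene.
Max, chr12:76962236-76962261, minus strand: tgagcccggtCACGTGttagggggcc
Mlx, chr11:101087240-101087265, plus strand: tgggttggatCACGTGactgagcctc
Mnt, chr11:74830791-74830816, plus strand: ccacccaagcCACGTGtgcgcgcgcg
Mxd4, chr5:34187914-34187939, minus strand: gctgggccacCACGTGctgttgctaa

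The hexamer began 3 bases before the annotated start in Max, 40 bases before it in Mlx, 123 bases in Mnt and 219 bases in Mxd4. Across all 32851 promoter windows 7.15% held the hexamer, as did 8.09% of the 27025 genes with a window and 11.5% of the 10177 such genes kept for comparison here. Those 3 shares are the background for the 4 of 8 members. The windows of Mxd1, Mxd3 and Mycn and the 3 windows of Mxi1 did not hold these letters. Strands are those of the RefSeq table, and the downstream end of each member window was found in that orientation in the GENCODE transcripts of the gene, except for Max, whose RefSeq start lies outside its GENCODE gene, so that its strand was not checked in this way. A match in the sequence is a description of the letters and not evidence of binding in these cells.

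The values that follow are fitted values. In the deposited table the 4 columns of a condition were proportional to each other for every gene, to within 1.42e-14 on the log2 scale, so each column is the mean that DESeq2 fitted for the condition multiplied by a factor for the depth of the library. Differences between libraries of a condition are therefore depth alone, and the table carries no spread between replicates. From this table no difference given here could be compared with replicate error. The p-values of the authors, deposited separately, were not used. Values were put on a common scale with median-of-ratios factors, and a gene was counted as higher or lower when its ratio passed 1.5-fold (0.58 on the log2 scale of the value plus 1). Intervals in parentheses are exact 95% Poisson intervals from the summed columns read as counts, whose totals per library ran from 20.4 M to 30.6 M, and they cover counting error only.

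Of the 15579 genes kept, 39.8% passed 1.5-fold with etoposide against LPS alone, 19.7% higher and 20.1% lower, and the median log2 ratio was -0.11. With another scaling that median moved to 0.11 (library totals), 0.07 (factors from genes with a mean of at least 100) or 0.32 (columns as deposited), so ratios are also given relative to it. Against this background 5 of the 8 kept members passed, 1 higher (Mxd1) and 4 lower (Myc, Max, Mxd3 and Mlx). With KU55933 and etoposide against etoposide 18.7% of genes passed, 7.86% higher and 10.9% lower, and so did 2 of the 8 members, Mxi1 (higher) and Mxd3 (lower). With KU55933 and etoposide against LPS alone 36.7% passed, 18.7% higher and 18% lower, and so did 5 of the 8 members, Mxd1 and Mxi1 higher and Myc, Max and Mxd3 lower. With 8 genes such counts are small beside these shares and are given as a description. The 3 comparisons share conditions and are not independent of each other.

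Myc (ENSMUSG00000022346, GRCm38 chromosome 15, 61985391 to 61990374, plus strand), the activator of the network, was the member with the highest level per kb of merged exons in all 3 conditions. Its deposited values were 3075, 3412, 3549 and 3198 in the 4 libraries with LPS alone. They were 1526, 1710, 2072 and 1658 with etoposide, and 1572, 1773, 1899 and 1930 with KU55933 and etoposide. The columns with LPS alone were the higher ones and those of the 2 etoposide conditions overlapped, which here and for the other members follows from the fitted means and the depth of each library and is no measure of replicate agreement. After scaling, Myc stood at 3901 with LPS alone, 1532 with etoposide and 1725 with KU55933 and etoposide. The log2 ratio of etoposide against LPS alone was -1.35 (-1.39 to -1.31), a 2.55-fold lower value and -1.24 relative to the median of all genes kept. Under the 5 other scalings of the columns it was -1.31 to -1.11, and -0.93 with the columns as deposited. Only 3.21% of the kept genes had a lower ratio. With KU55933 the value was 1.13-fold that with etoposide (log2 0.17, 0.12 to 0.22), and it remained at 44.2% of the LPS value.

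Because whole cultures were sequenced, fewer cells that express Myc and less Myc RNA in each cell cannot be told apart, and the same holds for the other members. Pax5, the factor that maintains B cell identity, stood at 5749, 1095 and 1161 in the same order of conditions, and all 7 B cell markers examined were at 10 or above throughout, summing to 220000, 137100 and 147000. With etoposide 6 of those 7 markers were lower by 1.5-fold or more, with a median log2 ratio of -0.76, against 2 under library totals, 3 under quantile normalization and 2 with the columns as deposited. Their part in the lower value of Myc was not tested. Markers of other cells were low beside those of B cells. The 6 T cell markers summed to between 15.28 and 15.72 and none reached 10, and neither of 2 NK cell markers reached 10. The 6 macrophage markers summed to between 429.2 and 456.7, and 4 red cell markers to between 45.71 and 88.93. The last 2 sums hold opposite moves. With etoposide 3 of the 6 macrophage markers were higher and 1 lower, and of 2 red cell markers kept 1 was higher and 1 lower. The 4 plasma cell markers summed to 21890, 20240 and 13270, and 1 of them was higher with etoposide (Sdc1, at 143.6, 1906 and 633.6) and 1 lower (Xbp1, at 7899, 5189 and 5412).

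Mycn (ENSMUSG00000037169, chromosome 12, 12936093 to 12941914, minus strand), the paralogue of Myc used in early development and in neural tissue, was close to absent. Its scaled values were 2.97, 3.63 and 3.71, and the 4 deposited columns of a condition summed to 10.1, 16.5 and 15.4. The log2 ratio of etoposide against LPS alone had a counting interval from -0.97 to 1.56, so a difference of up to that size was not detectable at this depth.

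Max (ENSMUSG00000059436, chromosome 12, 76937269 to 76962201, minus strand), the common partner of Myc and the Mxd proteins, was lower together with Myc. Its deposited values were 2268, 2516, 2618 and 2359 with LPS alone. They were 1487, 1667, 2019 and 1616 with etoposide and 1548, 1746, 1870 and 1901 with KU55933 and etoposide. The columns with LPS alone were the high ones, by fitted mean and depth. After scaling the levels were 2877, 1493 and 1699. The log2 ratio of etoposide against LPS alone was -0.95 (-0.99 to -0.90), or -0.84 relative to the median of all genes, and -0.52 with the columns as deposited. For KU55933 with etoposide against LPS alone it was -0.76, which shrank to -0.53 under library totals or quantile normalization and then no longer passed 1.5-fold.

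**Figure D1:**
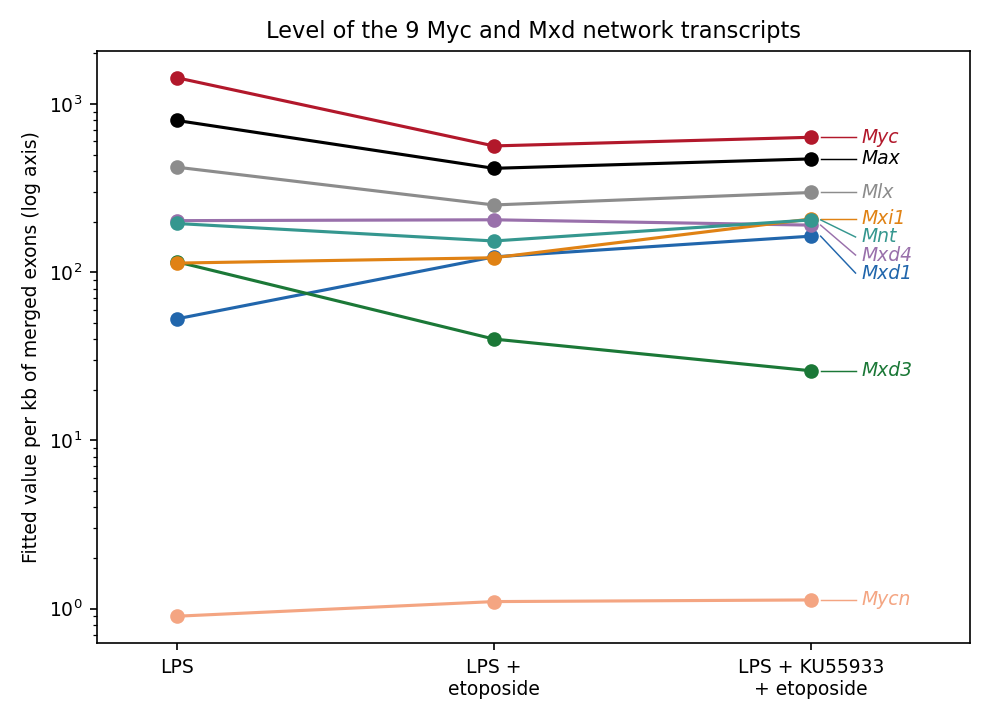
Level of each of the 9 members in the 3 conditions, as the scaled fitted value per kb of merged exons (log axis). Each point is the 1 fitted value of a condition, without error bars because the table holds no replicate spread, and lines join the points of a gene. Myc, Max and Mlx hold the 3 highest places in all 3 conditions, while Mxd1 lies at 52.8 with LPS alone and 123.4 with etoposide, and Mxd3 at 115.6 and 40.1.

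The repressor arm did not move as a block. Its 5 genes took different directions, with Mxd1 higher, Mxd3 lower, and Mxd4, Mxi1 and Mnt within 1.5-fold with etoposide against LPS alone.

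Mxd1 (ENSMUSG00000001156, chromosome 6, 86647042 to 86669161, minus strand), also known as Mad, antagonizes Myc in differentiating cells. Its deposited values were 294, 327, 340 and 306 with LPS alone. They were 869, 974, 1180 and 945 with etoposide, and 1057, 1191, 1276 and 1297 with KU55933 and etoposide. The columns with LPS alone were the low ones, by fitted mean and depth. The scaled levels were 373, 873 and 1159. Etoposide against LPS alone gave a log2 ratio of 1.22 (1.13 to 1.32), a 2.33-fold higher value at the 89.5th percentile of the genes kept. For KU55933 with etoposide against LPS alone it was 1.63 (1.54 to 1.72), at the 95.9th percentile. The step from etoposide to KU55933 with etoposide was 0.41 (0.35 to 0.47), in the same direction as the step with etoposide and within 1.5-fold.

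Mxd3 (ENSMUSG00000021485, chromosome 13, 55325168 to 55329823, minus strand) is the member of the family known from proliferating cells in S phase. Its deposited values were 216, 239, 249 and 224 with LPS alone. They were 94.6, 106, 128 and 103 with etoposide and 56.0, 63.2, 67.7 and 68.8 with KU55933 and etoposide. The columns with LPS alone were the high ones and those with KU55933 the low ones, by fitted mean and depth. Mxd3 was the only member to be lower by 1.5-fold in all 3 comparisons. Etoposide against LPS alone gave a log2 ratio of -1.52 (-1.70 to -1.36), and 1.92% of the genes kept were lower. Against etoposide, KU55933 with etoposide gave -0.62 (-0.85 to -0.40), which became -0.54 and no longer passed under quantile normalization. Against LPS alone the same cells stood at -2.14 (-2.36 to -1.95), at 22.5% of the LPS value, with 0.436% of the genes kept lower still. The exons of Mxd3 share 105 bases with those of Prelid1, a mitochondrial lipid carrier gene on the opposite strand, which stood at 5297, 4409 and 4125. The libraries were stranded according to the methods of the study, but the strand setting of the counting was not given in the sources used here.

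Mxd1 and Mxd3 thus exchanged places within the repressor arm. Mxd1 was below Mxd3 per kb with LPS alone (52.8 against 116) and above it with etoposide (123 against 40.1) and with KU55933 and etoposide (164 against 26.0). This exchange does not depend on the scaling of the libraries, because it compares genes of the same fitted column, and it held with the length of the longest transcript as well.

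Mxi1 (ENSMUSG00000025025, chromosome 19, 53310518 to 53375810, plus strand), a Myc antagonist that also answers to hypoxia and to FoxO factors in other cells, was the member that differed most upward with the inhibitor. Its deposited values were 610, 676, 704 and 634 with LPS alone. They were 829, 929, 1125 and 901 with etoposide and 1290, 1455, 1558 and 1584 with KU55933 and etoposide. The columns with KU55933 were the high ones, by fitted mean and depth. After scaling, the levels were 773 and 832 without the inhibitor and 1415 with it. The log2 ratio of KU55933 with etoposide against etoposide was 0.77 (0.71 to 0.83), at the 95.75th percentile of the genes kept, and 0.72 to 0.78 under the 5 other scalings of the columns and 0.64 with the columns as deposited. Etoposide by itself gave 0.11 (0.03 to 0.18), or 0.32 under library totals and 0.53 with the columns as deposited. An annotated gene on the opposite strand, Gm10197, shares 194 exon bases with Mxi1 and was not analysed here.

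Mnt (ENSMUSG00000000282, chromosome 11, 74830920 to 74845725, plus strand), the broadly expressed repressor of the network, was within 1.5-fold in all 3 comparisons. Its scaled values were 902 with LPS alone, 710 with etoposide and 948 with KU55933 and etoposide. The log2 ratio of etoposide against LPS alone was -0.35 (-0.42 to -0.27), and took the opposite sign, 0.08, with the columns as deposited. The ratio of KU55933 with etoposide against etoposide was 0.42 (0.35 to 0.48), close to the 0.41 of Mxd1.

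Mxd4 (ENSMUSG00000037235, chromosome 5, 34173883 to 34187720, minus strand), known from resting and differentiated cells, was the most level of the members kept under the median-of-ratios scaling. Its scaled values were 1720, 1740 and 1617. An annotated antisense gene on the opposite strand, Gm42846, shares 514 exon bases with Mxd4 and was not analysed here. For etoposide against LPS alone the log2 ratio was 0.02 (-0.03 to 0.07). That ratio was 0.24 under library totals and 0.44 with the columns as deposited, where Mnt had -0.13 and 0.08. For KU55933 with etoposide against etoposide it was -0.11 (-0.15 to -0.06). The ratio of KU55933 with etoposide against LPS alone was -0.09 and turned to values between 0.04 and 0.21 under library totals, quantile normalization, factors from genes with a mean of at least 100 and the columns as deposited, so it carries no direction.

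Mlx (ENSMUSG00000017801, chromosome 11, 101087277 to 101092207, plus strand), the partner of the Mondo factors, was lower with etoposide. The scaled values were 843 with LPS alone, 502 with etoposide and 596 with KU55933 and etoposide. In log2 terms etoposide against LPS alone gave -0.75 (-0.83 to -0.67), which is -0.64 relative to the median of all genes. It was -0.53 under library totals, -0.32 with the columns as deposited and -0.57 with factors from genes with a mean of at least 100, and then was within 1.5-fold. Mlx shares 385 exon bases with Psmc3ip, a recombination gene on the opposite strand at 342, 317 and 240.

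**Figure D2:**
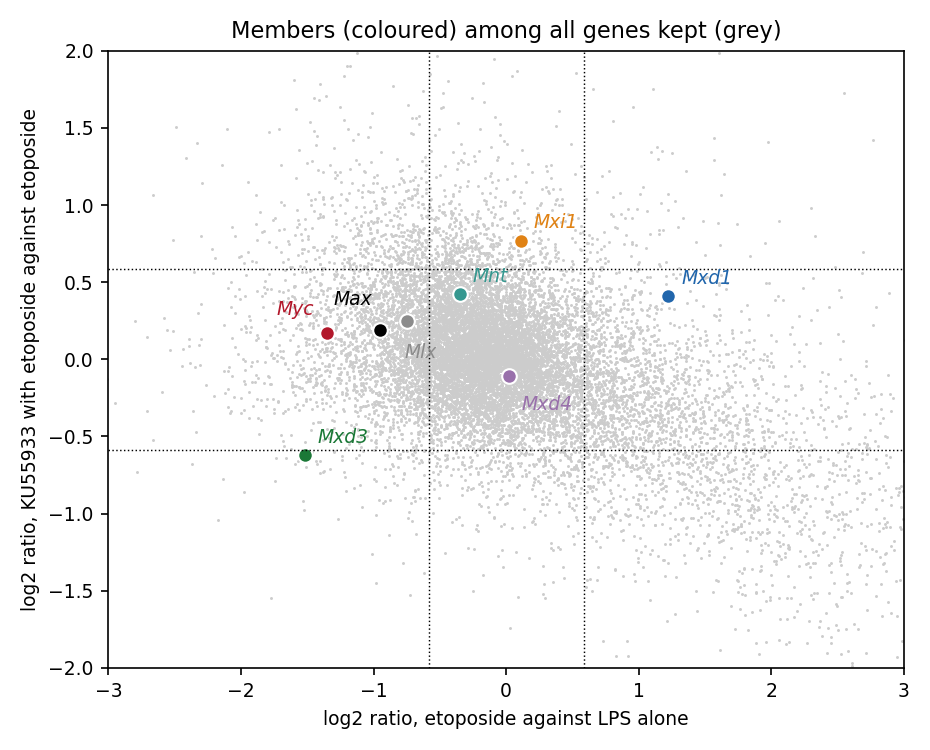
The 8 kept members (coloured) among all 15579 genes kept (grey), by the log2 ratio of etoposide against LPS alone (horizontal) and of KU55933 with etoposide against etoposide (vertical), with dotted lines at 1.5-fold. Both axes use the etoposide condition, and 360 genes fall outside the axes. Myc, Max and Mlx lie left of the left line with vertical values of 0.17 to 0.25, Mxd1 right of the right line, Mxi1 above the upper line, and Mxd3 in the lower left corner.

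The order of the members per kb of merged exons was Myc, Max, Mlx, Mxd4, Mnt, Mxd3, Mxi1, Mxd1 and Mycn with LPS alone. With etoposide Mxd1 moved up to follow Mnt and Mxd3 moved down to the place before Mycn. With KU55933 and etoposide Mxi1 stood directly after Mlx, with Mnt, Mxd4, Mxd1, Mxd3 and Mycn following. Some neighbours could not be separated even by counting error. These were Mxd4 and Mnt with LPS alone (ratio 1.04, interval 0.995 to 1.09), Mxd3 and Mxi1 with LPS alone (1.02, 0.945 to 1.10), Mxd1 and Mxi1 with etoposide (1.01, 0.967 to 1.06) and Mxi1 and Mnt with KU55933 and etoposide (1.01, 0.973 to 1.06). With the length of the longest transcript in place of merged exons the order with LPS alone was the same. In both etoposide conditions, however, Max then came before Myc, Mxd4 before Mlx, and both Mxd1 and Mxi1 before Mnt. The place of Mxd1 after Mnt with etoposide thus depends on the length used.

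The balance of Myc against its antagonists was then set out as a ratio of transcripts within each condition, a composite chosen after the values of the single genes had been seen. Per kb, Myc stood at 1436 with LPS alone beside a sum of 679 for Mxd1, Mxd3, Mxd4, Mxi1 and Mnt. With etoposide Myc stood at 564 beside a sum of 644, and with KU55933 and etoposide at 635 beside 793. The ratio of Myc to the sum was accordingly 2.11, 0.876 and 0.801, or 1.74, 0.699 and 0.658 with the length of the longest transcript. Myc transcripts therefore exceeded the 5 antagonists together with LPS alone and were fewer than them in both etoposide conditions, whichever length was used. The ratio was 2.41-fold lower with etoposide than with LPS alone and 1.09-fold lower again with KU55933, and neither the ratio nor its change depends on the factors by which libraries were scaled. Transcript ratios say nothing of protein, and Myc protein in particular is short-lived.

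Among the single pairs, that of Myc and Mxd1 differed most between LPS alone and etoposide. Myc exceeded Mxd1 27.2-fold per kb with LPS alone, 4.57-fold with etoposide and 3.87-fold with KU55933 and etoposide. For Mnt the same ratios were 7.36, 3.67 and 3.10, and for Mxi1 12.7, 4.62 and 3.06. Mxd3 went the other way, with 12.4, 14.1 and 24.5. Within the sum of the 5 antagonists the share of Mxd1 was 7.77%, 19.2% and 20.7%, that of Mxd3 17.0%, 6.22% and 3.27%, and that of Mxi1 16.7%, 18.9% and 26.2%. Myc per Max stood at 1.80, 1.36 and 1.34 with merged exons, and at 1.13, 0.852 and 0.843 with the length of the longest transcript, so which gene was above the other in the etoposide conditions depends on the length used.

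**Figure D3:**
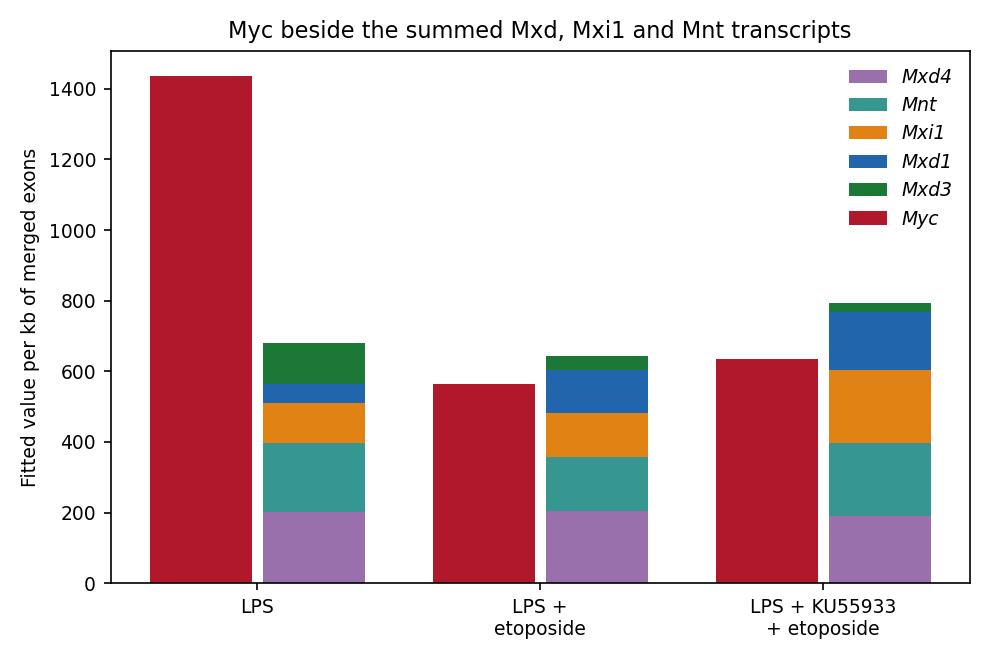
Scaled fitted value per kb of merged exons of Myc (red) beside the stacked values of Mxd4, Mnt, Mxi1, Mxd1 and Mxd3 in the 3 conditions, with bars starting at 0 and no error bars because there is no replicate spread. The red bar is above the stack with LPS alone (1436 against 679) and below it with etoposide (564 against 644) and with KU55933 and etoposide (635 against 793).

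Relatives of the network that were not among the 9 members gave a mixed picture. Mycl, the third Myc paralogue, was low, at 16.6, 46.5 and 36.3, with a log2 ratio of 1.43 for etoposide against LPS alone. Bmyc, a short relative of Myc without a DNA-binding domain, stood at 85.5, 38.5 and 95.7, and so was lower with etoposide (-1.13) and higher with KU55933 than with etoposide (1.29). Mga, a large Max partner that represses germ cell genes, was high and level at 6675, 7553 and 6771. Mlxip, the Mondo factor of most tissues, stood at 8714, 5323 and 5518, with a ratio of -0.71 for etoposide against LPS alone that lies close to the -0.75 of its partner Mlx. Mlxipl, its relative from liver and fat, did not exceed 15.0.

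Targets that Myc is known to activate in other cells were examined as a list, which like those below was drawn from general knowledge of the field. Of 37 such genes, all kept, 4 were higher, 13 lower and 20 within 1.5-fold with etoposide against LPS alone. Among all genes kept, 19.7% were higher and 20.1% lower. The median log2 ratio of the 37 was -0.39 beside -0.11 for all genes kept. That distance from the median of all genes was -0.29 under library totals but only -0.03 under quantile normalization, and the median itself was 0.03 with the columns as deposited. The 13 lower genes became 6, 3 and 0 under these settings in turn. Most of the 37 were abundant transcripts, and no background of like abundance was used. With a filter of at least 50 in 1 condition the median of all genes kept was -0.16. The paper reports that highly expressed genes were lower as a group with etoposide. The 4 higher genes were Tert (telomerase, 141 to 381, 1.42), Cad (pyrimidine synthesis, 7546 to 20000, 1.41), Odc1 (polyamine synthesis, 7318 to 15220, 1.06) and Prps2 (nucleotide precursor synthesis, 2815 to 4435, 0.66). The lowest were Tfap4 (a transcription factor, 443 to 222, -0.99), Hk2 (glycolysis, 2753 to 1505, -0.87) and Slc7a5 (amino acid uptake, 7034 to 3896, -0.85).

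Between the 2 etoposide conditions, 3 of the 37 targets were higher and 6 lower with KU55933, beside 7.86% and 10.9% of all genes kept. Their median was -0.28 beside -0.01. This distance of -0.27 was -0.28 under quantile normalization. Slc3a2 (0.91) and Slc7a5 (0.72), the subunits of a single amino acid transporter, were both higher with the inhibitor, as was Shmt2 (0.67). Cad (-0.94) and Prps2 (-0.82) had the lowest ratios. Against LPS alone 18 of the 37 were lower and 3 higher, beside 18% and 18.7% of all genes kept. The median was then -0.58 beside -0.04. The 18 became 13 under library totals, 16 under quantile normalization and 12 with the columns as deposited. This median lay -0.54 from that of all genes, and -0.35 under quantile normalization. Of the 28 targets with a promoter window 9, or 32.1%, held CACGTG, beside 11.5% of all kept genes with a window. The hexamer is not particular to this list, as 3 of 8 p53 targets with a window, or 37.5%, held it too. Over the 10177 kept genes with a promoter window, the median log2 ratio of etoposide against LPS alone was -0.18 for the 1172 genes whose window held the hexamer and -0.11 for the 9005 others.

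Targets that Myc is known to repress were fewer and overlapped with the p53 response. Of 7, 4 were higher and 1 lower with etoposide, beside 19.7% and 20.1% of all genes kept, with a median of 0.93. The largest was Cdkn1a (p21), at 427, 13120 and 10740, which is also a target of p53. Gadd45a, another of the 4, stood at 134.2, 284.9 and 298.5 (log2 1.08 with etoposide). The paper describes it too as dependent on p53. The 10 p53 targets examined as a check of the treatment were all higher by 1.5-fold with etoposide, with a median of 2.71. With KU55933 and etoposide all 10 were still higher than with LPS alone, with a median of 2.35. Against etoposide 3 of the 10 were lower and none higher with KU55933, with a median of -0.42. Cdkn2b (p15), the classical gene repressed by Myc through Miz1, stood at 75.3 with LPS alone, 193 with etoposide and 76.8 with KU55933 and etoposide. Cdkn2c (p18) stood at 553, 1051 and 502, and Cdkn1b (p27) at 4365, 2415 and 4204. Under the median-of-ratios scaling these 3 inhibitors of cyclin-dependent kinases had nearly the same level with LPS alone and with KU55933 and etoposide. With etoposide they differed from both, Cdkn2b and Cdkn2c upward and Cdkn1b downward. Levels compared across conditions depend on the scaling, and these were not given under the others. Cdkn1a, also such an inhibitor, had a log2 ratio of 4.65 for KU55933 with etoposide against LPS alone.

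Targets of the Mondo and Mlx pairs were split between glucose sensing and lipid synthesis. Txnip, the most direct reporter of the pair, stood at 4535, 6931 and 3819, with log2 ratios of 0.61 for etoposide against LPS alone and -0.86 for KU55933 with etoposide against etoposide. The lipid synthesis genes Fasn (12850, 6421 and 5572), Acaca (4950, 2484 and 1955) and Acly (13600, 7582 and 6313) were lower by 1.5-fold in both etoposide conditions against LPS alone. With the columns as deposited none of the 3 passed that fold with etoposide. Arrdc4 and Pklr did not reach 10 in any condition.

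**Figure D4:**
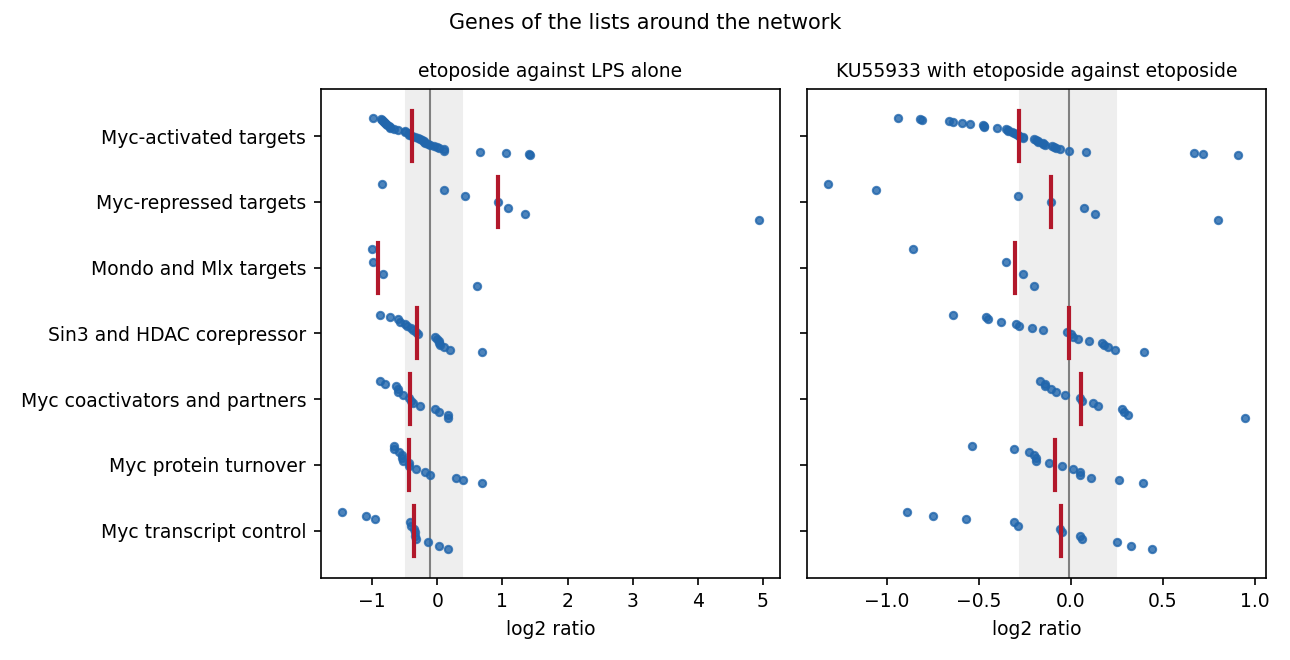
Log2 ratio of each kept gene of 7 lists around the network (blue points, in order of value) with the median of the list (red bar), for etoposide against LPS alone (left) and KU55933 with etoposide against etoposide (right). The grey line and band are the median and the interquartile range of all genes kept. The red bar of the Myc-activated targets lies at -0.39 on the left and -0.28 on the right, that of the Mondo and Mlx targets at -0.92 and -0.30, and that of the Myc-repressed targets at 0.93 on the left. With the columns as deposited the left red bars of the Myc-activated targets, Myc transcript control and the Sin3 list turn positive (0.03, 0.06 and 0.11), and on the right the bars of the coactivators (0.05), transcript control (-0.06) and the Sin3 list (-0.01) change sign with the scaling.

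The cofactors through which the network acts were described with the same counts. Among all genes kept, 19.7% were higher and 20.1% lower with etoposide against LPS alone. Of 18 genes of the Sin3 and histone deacetylase corepressor, 1 was higher and 3 lower with etoposide, with a median of -0.31, or -0.20 relative to all genes, which was 0.05 under quantile normalization, and the median itself was 0.11 with the columns as deposited. The 1 higher was Hdac2, at 1916, 3099 and 1994, and the lower ones were Rbbp7, a histone-binding subunit (8887, 4831 and 3537), Ncor1, a corepressor scaffold (10180, 6191 and 6366), and Sin3a, the scaffold to which Mxd proteins bind (3183, 2093 and 2091). Of 14 coactivators and partners of Myc none was higher and 5 lower, among them Ruvbl1, an ATPase of chromatin remodelling complexes (2441, 1327 and 1297), and Hcfc1, a chromatin-bound cofactor (13890, 7982 and 7261). Pim1, a kinase that acts with Myc at chromatin, was the 1 gene of that list past 1.5-fold with the inhibitor, at 6190, 4686 and 9050. The median of the 14 with etoposide was -0.42, or -0.31 relative to all genes, and 0.00 with the columns as deposited. With library totals 1 of the 14 was lower with etoposide.

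Genes that control the Myc transcript included Hnrnpd, which had the lowest ratio with etoposide of all genes in the lists around the network. Also called AUF1, Hnrnpd binds AU-rich messages including that of Myc, and stood at 7943, 2866 and 2748, a log2 ratio of -1.47 for etoposide against LPS alone. Fubp1, which opens the far upstream element of Myc, stood at 8788, 4124 and 2781 and was lower by 1.66 on the log2 scale with KU55933 and etoposide than with LPS alone. Ctcf, the insulator factor, stood at 6629, 3399 and 4032. Pvt1, the long non-coding RNA gene next to Myc, stood at 386, 289 and 172, with ratios of -0.42 and then -0.75 with the inhibitor, where Myc itself had 0.17. Of the 12 genes of this list that were kept, 3 were lower with etoposide and 7 with KU55933 and etoposide, both against LPS alone, and 1 was higher in the latter, Zfp36, a protein that destabilizes AU-rich messages (2120, 2392 and 3236). The 7 became 4 under library totals, quantile normalization and the columns as deposited.

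Of 14 genes for the turnover of Myc protein, with a median of -0.43 for etoposide against LPS alone, 1 was higher with etoposide, the ubiquitin ligase gene Fbxo28 (803, 1295 and 1134), and 3 lower, Fbxw7, the ligase that recognizes phosphorylated Myc (1160, 771 and 657), its scaffold Axin1 (2385, 1494 and 1613) and the phosphatase inhibitor Set (14260, 9002 and 7866). Among all genes kept 19.7% were higher and 20.1% lower. Under library totals 2 of the 14 were higher and none lower. None of the 14 passed 1.5-fold between the 2 etoposide conditions, where Skp2, a cell cycle ligase for Myc, had the lowest ratio (-0.54).

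Finally, each kept member with a mean of at least 100 was compared with 10871 genes by the distance between their pairs of log2 ratios. The genes nearest to Myc were Rasgrp1 (distance 0.00783), an activator of Ras, Rras2 and Bend5, and 27 genes lay within 0.1 of it. Nearest to Max were Nbn, Tlr6 and Mtmr3, with 82 genes within 0.1. Mxd1 had 2 genes within 0.1, Itfg3 and Hpgds, whereas Mxd4 had 333. The genes nearest to Mxd3 were Timd2, Cacna1i and Ptpn6, and those nearest to Mxi1 were H2-Q6, Ctns and Sppl2a. With 3 conditions a pair of ratios is a coarse description, and such likeness says nothing of shared control.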

How the data were processed

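Polyadenylated RNA of 12 libraries was sequenced by the authors (100-base single-end reads), trimmed with Trim Galore and cutadapt 1.2.1, mapped with TopHat2 2.0.12 to GRCm38, counted with HTSeq and fitted with DESeq2 1.6.3, per the labels and the methods of the study. DESeq2 of that version moderates fold changes toward 0 by default, most at low counts, and whether this was used is not given in the sources used here. The deposited table, named normalized counts by the authors, holds a signal per gene and library that proved to be the fitted mean of the condition times a library factor. The 3 deposited comparison tables hold the fold changes and p-values of the authors and were not used.

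Columns were divided by median-of-ratios factors over all listed genes (0.788 to 1.35) and combined per condition. Genes with at least 10 in at least 1 condition were kept, the pseudocount was 1, and 1.5-fold was the call. A limma test had been planned, but fitted means leave it no replicate variance to work on. Gene models were GENCODE M21, and sequences RefSeq. The members and the 15 lists (9 of genes around the network and 6 of cell type markers) were chosen with earlier results of these data known. Named genes were all members, the 3 highest and 3 lowest of each list with etoposide and the 2 highest and 2 lowest with KU55933 (means of at least 100), network relatives and Mondo targets in full, and the 3 nearest genes of each member. Names added after their values were seen are Sdc1 and Xbp1, genes whose exons overlap a member, and genes completing a count of 5 or fewer. Values of some genes that the rule names are not reported here.

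Computation used Python 3.11.15, numpy 2.4.6, pandas 2.3.3, scipy 1.17.1 and matplotlib 3.10.9, and was tested on simulated data. Alternatives were other scalings, pseudocounts of 0.5 and 5, other filters, a fold of 2, transcript length and leaving out each library.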

Additional observations from a re-analysis of the deposited data

How the results depend on the processing

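No paired analysis was possible because the 4 columns of a condition are proportional fitted values, so libraries with the same number cannot deviate together. For the same reason leaving out each library in turn could only move the scale. It shifted no log2 ratio of a member by more than 0.01, and left 5, 2 and 5 members past 1.5-fold (etoposide against LPS alone, KU55933 with etoposide against etoposide, KU55933 with etoposide against LPS alone), 6219 to 6249, 2892 to 2927 and 5721 to 5765 genes, and 13, 6 and 18 to 20 lower Myc-activated targets. This says nothing of biological spread.

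Of 576 member ratios recomputed under alternatives, 14 changed whether they passed the limit and 5 changed sign, all 5 in Mxd4 or Mnt. The 14 include ratios that kept their value while the limit rose from 1.5-fold to a fold of 2. No ratio past the limit reversed. With etoposide against LPS alone, members past the limit were 3 with the columns as deposited and 3 with a fold of 2, in place of 5, and lower Myc-activated targets were 6 (library totals), 3 (quantile normalization), 0 (columns as deposited), 0 (fold of 2) and 8 (factors from genes with a mean of at least 100, added after seeing the data), in place of 13. With KU55933 and etoposide against etoposide, members were 1 (quantile normalization) and 0 (fold of 2), in place of 2, and lower targets 10 (columns as deposited) and 0 (fold of 2), in place of 6. With KU55933 and etoposide against LPS alone, a fold of 2 left 3 members and 8 lower targets. All genes past a fold of 2 numbered 3198, 976 and 2635, in place of 6206, 2916 and 5722. Library totals split the genes past 1.5-fold with etoposide into 3950 higher and 1860 lower, in place of 3068 and 3138. With the length of the longest transcript, 2 of the 9 members kept their place in the order with etoposide, and 2 with KU55933 and etoposide, where all 9 did with LPS alone. Factors from genes with a mean of at least 10 were also added after seeing the data.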
